A study of Mus musculus with 6 samples.

Results

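Peaks of H3K4me3, a histone mark of active promoters, were set against peaks of H3K9me2, a repressive mark, in control gastrocnemius muscle. All peaks of both deposited lists on chromosomes 1 to 19, X and Y were taken, 16573 for H3K4me3 and 3703 for H3K9me2. Together they make 20276 of the 48419 peaks in the 6 lists of the series. The libraries were made by CUT&RUN, in which an antibody-bound nuclease frees the DNA around marked nucleosomes, from gastrocnemius muscle of 4-week-old male C57BL/6 mice. Both marks were mapped in Ctrl mice (Phf2 flox/flox;Acta1 Cre-), although the H3K4me3 library is titled wild type. Values from CKO mice (Phf2 flox/flox;Acta1 Cre+), in which Cre is driven by the skeletal muscle actin promoter, stand beside results in Ctrl. The CKO input was also used to filter Ctrl H3K9me2 peaks. Peaks free of input, or left without input-overlapping peaks, overlap none of the 3 inputs of the series unless Ctrl inputs are named. Of 3703 H3K9me2 peaks, 441 overlapped a Ctrl input peak and 991 a peak of any of the 3 inputs. All groups carry the floxed Phf2 alleles. There was 1 library per mark and there were 2 inputs in Ctrl, and CKO gave 1 H3K9me2 library and 1 input. No difference between the marks therefore has a replicate check, and no test was made. The labels do not say whether the libraries came from separate animals. In whole tissue, fewer marked cells and less mark per cell cannot be told apart, nor can the lists show whether both marks lay on the same DNA molecule.

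H3K4me3 is written by enzymes of the SET1 and MLL families at the start sites of genes and is densest at promoters rich in CG dinucleotides. H3K9me2 is written mainly by G9a and GLP (Ehmt2 and Ehmt1), is bound by readers of repressed chromatin, and often forms broad domains over silent genes. Demethylases of the KDM3 and PHF families remove it. PHF2, whose role in muscle the study examined, carries a domain that binds H3K4me3 and is described as a demethylase of H3K9me2.

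The lists differ in strength as well as in place. H3K4me3 peaks had a median width of 753 bp, and the median summit was 52 fragments deep (middle 50%: 20 to 86). H3K9me2 peaks were 388 bp wide and 6 fragments deep (5 to 8). Background coverage was 0.482 and 0.391 fragments per position. Broad, low H3K9me2 domains would not be listed by a search for narrow peaks, so what follows describes narrow H3K9me2 peaks. As a check of the tissue, the H3K4me3 list was read at muscle genes. It had a peak within 2 kb of an end of Des (fold 8.81), Actn3 (8.70), Mylpf (7.62) and Myod1 (8.95). The peaks given for Des and Myod1 overlapped the gene, and those for Actn3 and Mylpf lay just outside it. At Acta1, Ckm, Mb, Neb, Ttn and Myh4, which are defining genes of muscle fibres, no H3K4me3 peak came within 2 kb of an end. Fold here and below is the authors' summit enrichment over local background.

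Promoters under both marks and under H3K9me2 alone differed in sequence. The 120 bases before the start site of 4 such genes are given as examples, taken from RefSeq on GRCm38.p6, the assembly behind mm10, and written 5′ to 3′ along the gene's strand with each CG in capitals. They were chosen after their values were seen, from peaks with no peak of any input. Rab4b, a small GTPase of endosome recycling, and Qdpr, which regenerates tetrahydrobiopterin, have both marks at the start. Fsip2, a sperm flagellum protein, and Tbpl2, a TATA-binding protein relative of oocytes, have H3K9me2 there and no H3K4me3.
Rab4b, chr7:27178884-27179003, minus strand: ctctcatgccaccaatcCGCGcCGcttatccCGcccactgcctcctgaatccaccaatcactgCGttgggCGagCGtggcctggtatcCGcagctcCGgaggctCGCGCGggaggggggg
Qdpr, chr5:45450230-45450349, minus strand: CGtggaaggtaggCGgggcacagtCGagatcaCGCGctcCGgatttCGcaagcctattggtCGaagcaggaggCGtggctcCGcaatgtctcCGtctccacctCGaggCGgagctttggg
Fsip2, chr2:82943514-82943633, plus strand: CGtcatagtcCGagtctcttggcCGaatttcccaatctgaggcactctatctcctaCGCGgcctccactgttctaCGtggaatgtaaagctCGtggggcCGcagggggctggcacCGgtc
Tbpl2, chr2:24096596-24096715, minus strand: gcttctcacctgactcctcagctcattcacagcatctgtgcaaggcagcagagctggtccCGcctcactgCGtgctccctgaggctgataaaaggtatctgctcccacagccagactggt
These stretches hold 12 CG in Rab4b, 13 in Qdpr, 9 in Fsip2 and 2 in Tbpl2.

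At Rab4b the H3K9me2 peak (chr7:27178625-27178975, fold 6.94, 9 fragments) lay wholly inside the H3K4me3 peak (chr7:27178499-27179141, fold 18.3). The Qdpr pair was arranged alike, with H3K9me2 at chr5:45449885-45450404 (fold 6.32, 8 fragments) inside H3K4me3 at chr5:45449725-45450474 (fold 19.3, 129 fragments). At Fsip2 the H3K9me2 peak (chr2:82943472-82943825, fold 7.02, 9 fragments) was 700 kb from the nearest H3K4me3 peak. At Tbpl2 the H3K9me2 peak (chr2:24096218-24096634, fold 5.65, 10 fragments) was 47.3 kb from one. CKO muscle had an H3K9me2 peak at Qdpr (fold 7.41) and Fsip2 (fold 8.12) and none at Rab4b or Tbpl2.

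Across all 32851 RefSeq promoter windows, which run from 250 bases before to 50 bases after a start site, 353 overlapped both marks and 36 overlapped H3K9me2 without H3K4me3. Those under both marks had a median GC content of 66.3% and a median of 27 CG, above the 63.3% and 23 CG of the 12445 windows under H3K4me3 alone. Windows under H3K9me2 without H3K4me3 lay lower, with 55.5% GC and 11.5 CG. Windows under neither mark had 47.7% GC and 3 CG. The GC box GGGCGG, searched like the other motifs on both strands, was in 83.6% of windows under both marks and in 33.3% of those under H3K9me2 alone. The shares were 71.3% under H3K4me3 alone and 35.7% of all windows. The TATA box TATAAA was in 3.12% of windows under both marks, 5.57% under H3K4me3 alone and 13.6% of all windows. It was in 4 of the 36 windows under H3K9me2 alone. CCAAT (42.5%, against 37.4% of all windows) and the E box CAGCTG (10.5%, against 16.3%) are the other motifs searched in windows under both marks. None of the 4 motifs contains another. A gene with H3K9me2 somewhere but no H3K4me3 at an end had a median of 5 CG in its window, and a gene with neither mark 3.

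By gene, with the full lists, H3K4me3 without H3K9me2 was the commonest state and H3K9me2 without H3K4me3 the rarest. A gene counted as marked by H3K4me3 if a peak touched the 2 kb around its start or its end, and as marked by H3K9me2 if a peak touched the gene or the 2 kb on either side. Of 21774 protein-coding genes, 13023 (59.8%) were counted for H3K4me3 and 1129 (5.19%) for H3K9me2. H3K4me3 alone was found at 12248 genes (56.3%), both marks at 775 (3.56%), H3K9me2 alone at 354 (1.63%) and neither at 8397 (38.6%). This order depends on list length and threshold. With the H3K4me3 list cut to the length of the H3K9me2 list, 892 genes had H3K9me2 alone and 237 both marks. With folds at or above each list's median the counts were 295 and 272, and with q of 1e-05 or less 58 and 58. When H3K9me2 peaks overlapping a peak of any of the 3 inputs were left out, 685 genes (3.15%) kept H3K9me2. In CKO muscle 3367 genes (15.5%) had an H3K9me2 peak.

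Counted over all genes, H3K9me2 was not rarer where H3K4me3 was present. It was found at 5.95% of genes with H3K4me3 (exact 95% binomial interval 5.55 to 6.37) and at 4.05% of genes without it (3.64 to 4.48). Without peaks that overlap any of the 3 inputs, a filter chosen after seeing the data, the shares were 3.18% (2.88 to 3.49) and 3.10% (2.74 to 3.48). Their intervals overlap. Without only those that overlap a Ctrl input the shares were 4.78% and 3.53%, a difference of 1.25 percentage points (95% interval 0.713 to 1.78). These intervals, like all that follow, cover counting error only. CKO muscle gave 18.0% and 11.7%. With q of 1e-05 or less in both lists, which 14912 H3K4me3 and 392 H3K9me2 peaks passed, the difference, genes with H3K4me3 minus genes without, was -0.175 percentage points (-0.387 to 0.0211), an interval that includes 0.

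Gene length moved with the classes. Genes with H3K9me2 alone had a median length of 102 kb, genes with both marks 71.4 kb, genes with H3K4me3 alone 21.9 kb and genes with neither 8.94 kb. A longer gene offers more sequence for a peak in its body, while H3K4me3 was read at the ends alone. Within bins of length and with all H3K9me2 peaks, the share was higher in genes with H3K4me3 in the 3 bins under 50 kb. It was lower in the bins from 100 to 400 kb. Without input-overlapping peaks it was higher only between 10 and 20 kb. Of genes under 10 kb, 2.09% with H3K4me3 and 1.15% without had H3K9me2, and 0.734% and 0.831% without input-overlapping peaks. The shares were 3.40% and 1.301% between 10 and 20 kb, 5.01% and 3.48% between 20 and 50 kb, and 6.75% and 7.60% between 50 and 100 kb. Without input-overlapping peaks these 3 bins had 1.66% and 0.939%, 1.92% and 2.59%, and 2.56% (1.89 to 3.39) and 5.81% (4.17 to 7.86). Between 100 and 200 kb, with all H3K9me2 peaks, the shares were 9.17% (7.51 to 11.1) with H3K4me3 and 15.5% (11.9 to 19.6) without. Between 200 and 400 kb they were 21.1% (17.5 to 25.1) and 32.4% (25.5 to 39.9). Over 400 kb they met again, at 53.2% of 231 genes and 54.5% of 121 genes. In that bin 189 of 352 genes (53.7%) had H3K9me2.

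**Figure D1:**
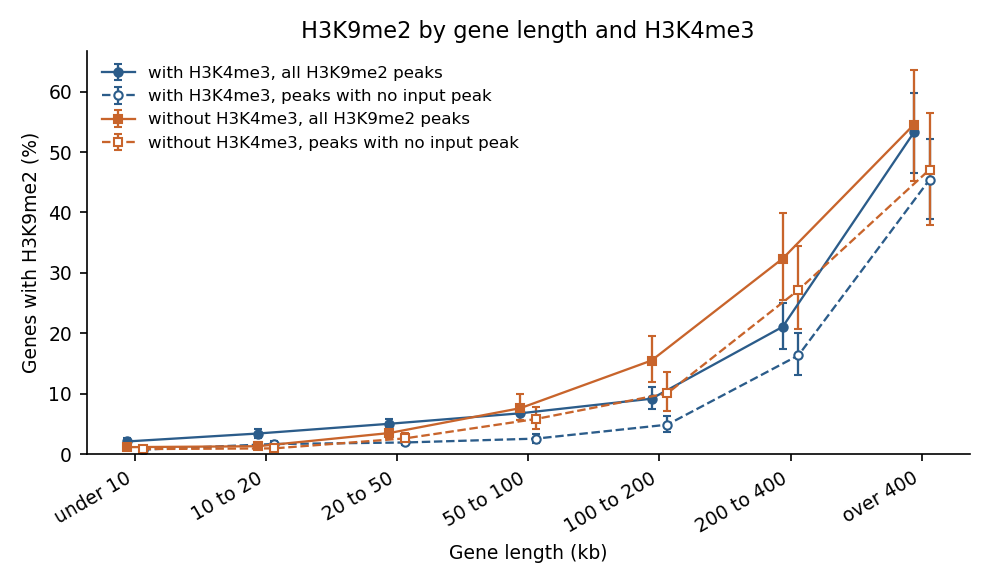
Share of protein-coding genes with an H3K9me2 peak (vertical axis, percent) by gene length in kb (horizontal axis), for genes with and without H3K4me3 at an end, with all H3K9me2 peaks (filled) or only those that overlap no input peak (open). Bars are exact 95% binomial intervals. With all peaks the shares rise with length from 2.09% and 1.15% under 10 kb to 53.2% and 54.5% over 400 kb. Between 100 and 400 kb genes without H3K4me3 lie higher. With peaks that overlap no input they also lie higher between 50 and 100 kb (5.81% against 2.56%).

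Per length of gene body, H3K9me2 peaks were sparser in genes with H3K4me3. Beyond 2 kb of the ends, 443 peak centres in 671 Mb of such bodies gave 0.660 per Mb. In genes without H3K4me3, 334 centres in 288 Mb gave 1.16 per Mb. Without input-overlapping peaks the densities were 0.489 and 0.902 per Mb, and in CKO muscle 2.18 and 4.66 per Mb.

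Genes with both marks were of different kinds by where the H3K9me2 peak lay. In 485 of 775 (62.6%) it overlapped an H3K4me3 peak, and in 268 (34.6%) the nearest H3K9me2 peak was over 10 kb from H3K4me3. In 119 (15.4%) it was over 100 kb away. In genes with H3K9me2 alone the median distance to H3K4me3 was 157 kb (middle 50%: 57.2 to 336 kb), and in 23 of 354 the peak overlapped an H3K4me3 peak that lay over 2 kb from the gene's ends. H3K9me2 lay within 2 kb of a gene end in 61.9% of genes with both marks and in 26.8% of genes with H3K9me2 alone. Genes with both marks lost H3K9me2 more often on removal of input-overlapping peaks, with 53.4% (49.8 to 57.0) keeping one against 76.6% (71.8 to 80.9) of genes with H3K9me2 alone.

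Among genes with H3K9me2 alone, the highest peak was that of Filip1l, a filamin-interacting protein, at a fold of 21.97. It overlaps a Ctrl input peak and an H3K4me3 peak in the gene body, and the same peak counts for Cmss1, which has H3K4me3 at an end. The next was Grik2, a kainate-type glutamate receptor (chr10:49444412-49444789, fold 9.87, 15 fragments), with no input peak and 337 kb from H3K4me3. The peak of Nrsn1, a protein of neuronal vesicles (8.73), likewise overlapped no input. The predicted genes Gm51597 and Gm51598 share a peak at a fold of 9.25 that overlaps the CKO input. The peaks of 4931408C20Rik (9.65), Gm21149 (8.51), Speer4e (8.28) and the cytochromes Cyp2c38 and Cyp2c39 (8.25, 1 shared peak) overlap a Ctrl input. Reads of near-identical gene copies such as the Speer and Cyp2c families cannot be assigned to a member with certainty.

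Genes with both marks and the highest H3K9me2 free of a Ctrl input peak were mostly long, and distances here are those of the gene's nearest H3K9me2 peak. They were Galntl6, a glycosyltransferase relative (fold 8.47, 80.9 kb from H3K4me3), Rims2, a synaptic vesicle protein (7.92, 22.1 kb), and the adhesion receptor Adgrl3 (7.88, 687 kb). Cadps2, a vesicle priming protein (7.33, 473 kb), the cell adhesion protein Lsamp (7.33, 186 kb), the receptor phosphatase Ptprd (7.29, 278 kb) and Mctp1 (7.26, 24.0 kb) had the same layout. In the other 3, Gm32687 (7.81), the zinc finger gene Zfp619 (7.56) and Etnk1, an ethanolamine kinase (7.26), H3K9me2 overlapped the H3K4me3 peak. The peaks of Adgrl3, Zfp619 and Etnk1 overlap the CKO input. With a Ctrl input peak, the highest were Zc3h7a (25.2), Cmss1 (21.97), Aida and Brox (both 21.002, 1 shared peak 1.298 kb from H3K4me3) and Jarid2 (17.9). Long genes with H3K4me3 alone included Il1rapl2 (1278 kb) and Auts2 (1106 kb), and both had H3K9me2 in CKO muscle. The highest H3K4me3 folds without H3K9me2 were those of Pacrgl (25.7), 2610008E11Rik (25.2), Pnpt1 (25.02), Ndufb2 (24.5) and Rwdd2b (24.3).

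Most genes of the muscle lists had H3K4me3 and few had H3K9me2. Of 141 genes in 10 lists of sarcomere, excitation, myogenic, growth, metabolic and neuromuscular junction genes, 107 (75.9%) had H3K4me3 and 3 (2.13%) had H3K9me2, beside 59.8% and 5.19% of all genes. Their median length was 23.9 kb, and that of all genes 17.2 kb. With 3 genes, the share with H3K9me2 is not read as different from that of all genes. The first of the 3 was Myf5, a myogenic transcription factor of satellite cells, which had H3K9me2 alone. Its peak (chr10:107485358-107485729, fold 6.17, 9 fragments) overlapped no input, lay inside the gene within 2 kb of an end, and was 7.98 kb from H3K4me3. The second was Jph1, a junctophilin that holds the triad together, with H3K9me2 in the body (4.95, 8 fragments) 143 kb from H3K4me3. The third was Igf1r, the receptor of insulin-like growth factor, whose H3K9me2 peak (4.21, 5 fragments) overlapped H3K4me3 (5.42). Oxidative metabolism genes had H3K4me3 in 16 of 16 and H3K9me2 in 0, and atrophy and autophagy genes in 15 of 15 and 0. Sarcomere genes were lower, with H3K4me3 in 10 of 15 of fast fibres, 2 of 12 of slow fibres and 7 of 15 of all fibres. H3K9me2 was in 0 of each of these lists. Phf2 had H3K4me3 (7.81) and no H3K9me2. The 20 enzymes and readers of H3K9 methylation had H3K4me3 in 19, among them Ehmt1 (10.1) and Ehmt2 (4.31), and H3K9me2 in 0.

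Markers of other cell types in muscle, pooled over 6 lists, less often had H3K4me3, at 23 of 58 (39.7%) beside 59.8% of all genes. Satellite cell markers went the other way, with H3K4me3 at 8 of 10 (80%). The counts were 5 of 10 endothelial, 3 of 8 Schwann cell, 3 of 11 blood and immune, 2 of 8 adipocyte and 2 of 11 fibroadipogenic markers. H3K9me2 was at 4 of the 58 (6.90%) beside 5.19% of all genes, which is not read as a difference. Of the 4, Calcr, a calcitonin receptor of satellite cells (fold 4.31), and the monocyte receptor Cd14 (4.31) had both marks, and Myf5 and the macrophage marker Adgre1 (5.34) had H3K9me2 alone. The 11 fibroadipogenic, 10 endothelial, 8 adipocyte and 8 Schwann cell markers had no H3K9me2, in lists too short to read this as a difference. How far these cells account for either list was not tested.

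Nearly all genes of general upkeep had H3K4me3. Ribosomal proteins, complex I, the proteasome and housekeeping genes had H3K4me3 in 246 of 268 (91.8%) and H3K9me2 in 5 (1.87%), beside 59.8% and 5.19% of all genes. They are short, with a median of 5.67 kb, and 2.09% of all genes under 10 kb with H3K4me3 had H3K9me2. Of the 5, Rps23, Mrps6, Mrpl14 and Mrps33 had peaks that overlap the CKO input, and only Ndufb4, of complex I (fold 5.61), kept H3K9me2 without input-overlapping peaks. Each of these H3K9me2 peaks overlapped the gene's H3K4me3 peak.

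Olfactory and vomeronasal receptors, silent in muscle, lacked both marks. Of 1459 such genes, with a median length of 0.951 kb, 5 (0.343%) had H3K4me3 and 15 (1.03%) had H3K9me2. Of all genes under 10 kb without H3K4me3, a set that includes most of these receptors, 1.15% had H3K9me2. The receptors' share is near that value. Of 57 clustered protocadherins 12 had H3K9me2, but all 12 overlap 1 shared peak.

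Neuronal receptor and adhesion genes had the highest share of H3K9me2 of the 35 lists, at 18 of 25 (72%), and 17 kept it without input-overlapping peaks. H3K4me3 was at 9 of the 25. The list is made of very long genes, with 22 of 25 over 400 kb, and 17 of those 22 had H3K9me2 where 53.7% of all genes over 400 kb did. The receptors were led by Grik2 (given above), and Gria2 had a peak at 5.44 that overlaps the CKO input. Of adhesion genes, Cntnap5a had 4 peaks (highest 7.02), Cntnap2 6 (5.24), Nlgn1 1 (6.62), Opcml 2 (6.43), Lsamp 3 (7.33) and Csmd1 4 (5.24). The 5 genes with neither mark were Gria1, Grik1, Grin2a, Grin2b and Cntn5. All 25 had H3K9me2 in CKO muscle, where 84.0% of all genes over 400 kb with H3K4me3 and 93.4% of those without did.

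**Figure D2:**
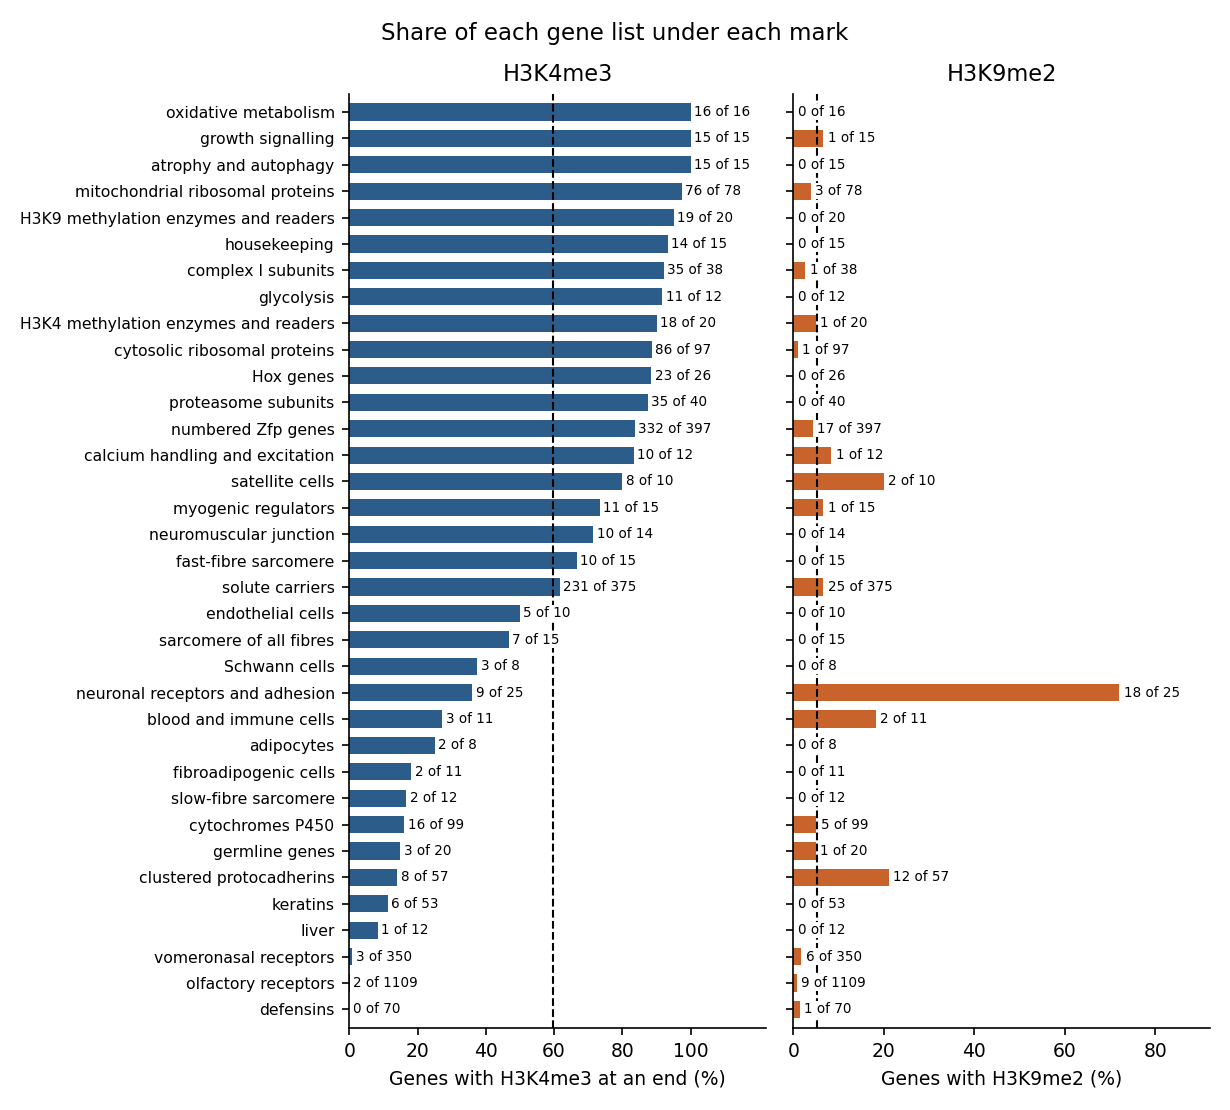
Share of the genes of each of 35 lists with H3K4me3 within 2 kb of an end (left) and with H3K9me2 in the gene or within 2 kb (right), in percent on the horizontal axes. Counts stand beside the bars, and dashed lines mark all protein-coding genes (59.8% and 5.19%). Neuronal receptors and adhesion genes stand at 72% for H3K9me2, and their genes are mostly over 400 kb long.

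By distance, H3K9me2 peaks were rare around H3K4me3 and common away from it, except inside H3K4me3 peaks themselves. The median distance from an H3K9me2 peak to the nearest H3K4me3 peak was 197 kb (95% interval of the median 184 to 210 kb), counting overlap as 0. In the other direction it was 488 kb (476 to 499.7 kb), and 25.7% of H3K4me3 peaks were over 1 Mb from H3K9me2. H3K4me3 peaks lay close to one another, with a median of 25.9 kb, and H3K9me2 peaks were 184 kb apart. The nearest other peak of either list was of the same mark for 91.1% of H3K4me3 peaks and 51.1% of H3K9me2 peaks. The lists differ in length, so these shares and distances depend on how many peaks each holds. With the H3K4me3 list cut to the length of the H3K9me2 list the median distance was 529.1 kb, and with folds at or above each list's median it was 346.2 kb.

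Density takes the unequal amount of sequence at each distance into account. Inside H3K4me3 peaks, 473 H3K9me2 centres in 13.5 Mb gave 35.1 per Mb (exact 95% Poisson interval 32.0 to 38.4). Outside them but under 10 kb away, 71 centres in 285 Mb gave 0.249 per Mb (0.195 to 0.315). Between 10 and 100 kb the density was 0.767 per Mb (0.713 to 0.824), between 100 and 500 kb 1.86 per Mb (1.77 to 1.96) and beyond 500 kb 1.55 per Mb (1.45 to 1.66). In finer steps the lowest value was 0.156 per Mb at 2 to 5 kb and the highest outside H3K4me3 peaks was 2.10 per Mb at 200 to 500 kb. Beyond 1 Mb it was 1.15 per Mb. H3K9me2 density at 100 to 500 kb was above that under 10 kb and that at 10 to 100 kb on each of the 19 autosomes, also without input-overlapping peaks. Beyond 500 kb it was higher still on 11 autosomes and lower on 8. The autosomal median was 1.93 per Mb at 100 to 500 kb and 2.11 beyond. The pooled values include X, with 0.711 and 0.570 per Mb in these classes, and Y, with 0.165 H3K9me2 peaks per Mb over its length. Over autosomes H3K9me2 density ranged from 0.0554 to 0.437 per Mb under 10 kb and from 1.497 to 2.62 per Mb at 100 to 500 kb.

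The inputs too were densest inside H3K4me3 peaks, and outside them varied less with distance in these broad classes. Ctrl input 1 had 107 peaks per Mb inside H3K4me3 peaks, 0.629 under 10 kb, 0.642 at 10 to 100 kb, 0.708 at 100 to 500 kb and 0.437 beyond. Ctrl input 2 had 51.6, 0.260, 0.268, 0.232 and 0.155 per Mb. The CKO input, from a list of 10931 peaks, had 398, 2.51, 2.46, 2.05 and 1.34 per Mb. In finer steps Ctrl input 1 rose from 0.379 per Mb (0.263 to 0.530) at 2 to 5 kb to 0.713 (0.638 to 0.794) at 200 to 500 kb, so that input rose over this span too. Without input-overlapping peaks H3K9me2 had 10.8 per Mb inside H3K4me3 peaks and 0.179, 0.612, 1.47 and 1.24 per Mb with distance. H3K9me2 in CKO muscle had 131, 0.861, 2.75, 6.56 and 4.80 per Mb, from a list of 12832 peaks. Genes lay the other way, with 25.3 gene centres per Mb under 10 kb from H3K4me3 and 3.80 at 100 to 500 kb.

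**Figure D3:**
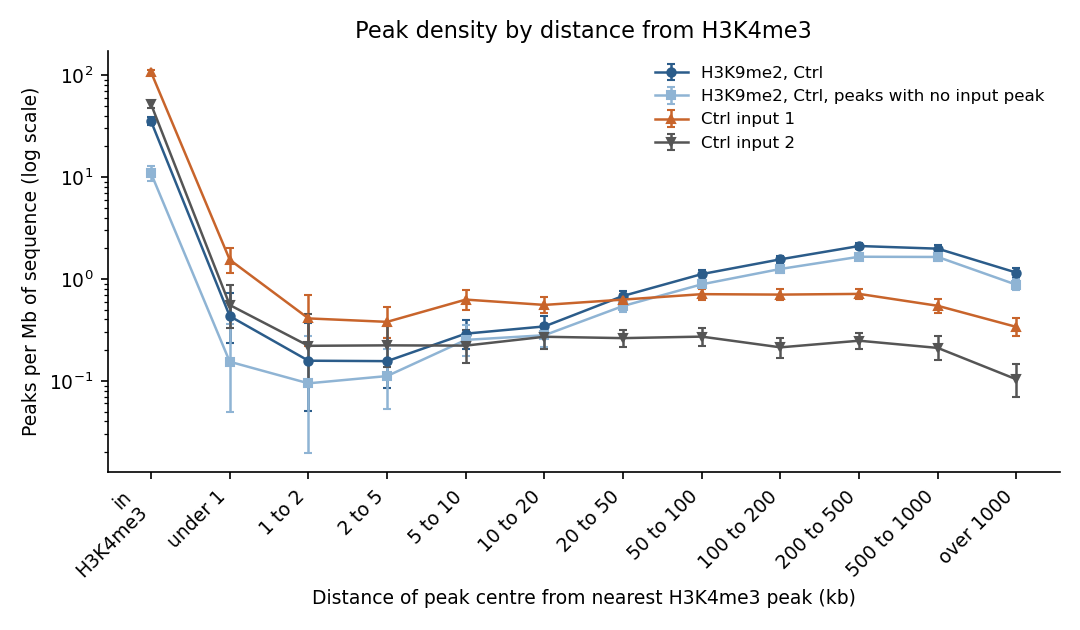
Peaks per Mb of sequence (vertical axis, log scale) by distance of the peak centre from the nearest H3K4me3 peak (horizontal axis, kb), for H3K9me2 in Ctrl, the same without peaks that overlap an input, and both Ctrl inputs. Bars are exact 95% Poisson intervals. All 4 are highest inside H3K4me3 peaks, and outside them H3K9me2 rises from 0.156 per Mb at 2 to 5 kb to 2.10 per Mb at 200 to 500 kb, where Ctrl input 1 goes from 0.379 to 0.713 and Ctrl input 2 from 0.223 to 0.248.

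A minority of H3K9me2 peaks overlapped H3K4me3, and most of those carried a peak of some input once the CKO input was counted. H3K4me3 peaks cover 13.5 of 2660 Mb. H3K9me2 had 35.1 centres per Mb inside them, above its mean of 1.39 per Mb over all sequence. Without input-overlapping peaks these densities were 10.8 and 1.02 per Mb. Of 3703 H3K9me2 peaks 482 (13.0%, 11.9 to 14.1) overlapped H3K4me3 by 1 bp or more, which is 2.91% of H3K4me3 peaks. Of those 482, 69.3% (64.96 to 73.4) also overlapped a peak of some input, and 33.0% one of the Ctrl inputs. Of the 3221 H3K9me2 peaks away from H3K4me3 the shares were 20.4% and 8.76%. Among H3K9me2 peaks without any input peak, 148 of 2712 (5.46%, 4.63 to 6.38) overlapped H3K4me3. The inputs overlapped H3K4me3 more than H3K9me2 did, with 47.7% and 54.2% of the peaks of the Ctrl inputs and 5467 of 10931 of the CKO input. Of all H3K4me3 peaks, with or without H3K9me2, 37.1% overlapped a peak of some input and 11.9% one of the Ctrl inputs. How far the fall from 13.0% to 5.46% follows from where input peaks lie was not tested. In CKO muscle 14.0% of H3K9me2 peaks overlapped H3K4me3. Why input peaks lie at H3K4me3 was not tested.

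Overlapping peaks were nested rather than adjoining. In 79.3% of 483 pairs the H3K9me2 peak lay wholly inside the H3K4me3 peak, and in 97.9% its summit did. Summits were a median of 121 bp apart (middle 50%: 52.5 to 274.5 bp), and 117.5 bp in the 148 pairs without an input peak. H3K9me2 peaks on H3K4me3 were no higher than the others, with a median fold of 4.87 against 4.91. H3K4me3 peaks with H3K9me2 were wider (937.5 against 748 bp) and taller (91 against 50 summit fragments). In quartiles of H3K4me3 peaks by summit fragments, from fewest to most, 0.942%, 1.06%, 2.90% and 6.52% overlapped H3K9me2. Without input-overlapping peaks the shares were 0.169%, 0.459%, 0.942% and 2.005%. The share of H3K4me3 peaks with an input peak rose over the same quartiles from 14.7% to 61.6%.

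The 5 highest overlapping pairs without a Ctrl input peak lay at the ends of Gm32687, Zfp619 and Etnk1 (given above) and of Tom1, a sorting adaptor (7.22), and Pex7, a peroxisomal import receptor (7.19). All but that of Gm32687 overlap the CKO input. Pairs with no peak of any input were chosen as a set after the values were seen. The share of all such pairs at gene ends is not given. Of the 10 highest, 9 lay at gene ends. Beside Rab4b and Qdpr they were Gm32687 (H3K9me2 fold 7.81, H3K4me3 fold 22.7), Dmac1, an assembly factor of complex I (7.18 and 19.5), and Fam172a (6.86 and 20.1). Xrcc4, a DNA repair factor that shares its peak with Tmem167 (6.65 and 21.1), Zfp386 (6.57 and 19.1), the ubiquitin ligase Siah2 (6.57 and 7.86) and Zfp606 (6.47 and 21.98) followed. The exception was a pair 343 kb from Mn1 (6.32 and 5.33). Their H3K9me2 summits held 8 to 10 fragments. Pairs with a Ctrl input peak reached far higher H3K9me2 folds, up to 27.7 at chr9:35305239-35305589, 29.3 kb from Rpusd4. There the H3K4me3 fold was 30.8, the highest of its list. The next were Zc3h7a (25.2), a pair 282 kb from Pex2 (23.04), Cmss1 with Filip1l (21.97) and a pair 60.9 kb from Axin2 (19.8).

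The H3K9me2 peaks farthest from H3K4me3 were on chromosome Y, where H3K4me3 had 4 peaks. On the autosomes the 5 farthest lay at and around Cdh12, a cadherin of neurons, on chromosome 15. They reached 5.50 Mb from H3K4me3 at chr15:19909701-19910069 (fold 3.51, 4 fragments). The highest of the 5, at chr15:21342083-21342491 within Cdh12 (fold 6.43, 9 fragments), was 4.07 Mb away and had a CKO peak.

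By 1 Mb windows the marks shared most windows and were opposed in number. Of 2672 windows, 1394 (52.2%) held both marks, 723 (27.1%) H3K4me3 alone, 368 (13.8%) H3K9me2 alone and 187 (6.999%) neither. Spearman's rho between the counts was -0.27 over all windows and -0.39 over the 2413 autosomal windows. Neighbouring windows are not independent and share gene content and base composition, so rho is given as a description. It was below 0 on each of the 19 autosomes, from -0.54 on chromosome 5 to -0.18 on chromosome 13, and -0.09 on X. On Y, where H3K4me3 had 4 peaks, it was 0.26 over 91 windows. Without input-overlapping peaks it was -0.40 over autosomes, and with CKO H3K9me2 -0.47. Over all windows it was -0.12 with q of 1e-05 or less. H3K4me3 counts ran with the inputs instead, with autosomal rho of 0.37 and 0.31 for the Ctrl inputs and 0.75 for the CKO input.

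Windows with more than 2 H3K4me3 peaks held fewer H3K9me2 peaks. Autosomal windows with 0 H3K4me3 peaks held a mean of 1.99 H3K9me2 peaks (SD 1.51, n = 403 windows), and windows with 1 to 2 held 2.08. The means were then 1.69 at 3 to 5, 1.18 at 6 to 10, 0.686 at 11 to 20 and 0.534 (SD 0.860, n = 148) at over 20. Ctrl input 1 rose over the same bins from 0.566 to 2.12 peaks per window.

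Gene number moved with both marks, since H3K4me3 counts had a rho of 0.82 with protein-coding genes on autosomes and H3K9me2 counts -0.30. Within windows of like gene number the relation between the marks stayed below 0 from 1 to 2 genes upward. It was -0.13 at 1 to 2 genes, -0.24 at 3 to 5, -0.34 at 6 to 10, -0.36 at 11 to 20 and -0.37 at over 20. In windows without a gene it was 0.02, where H3K4me3 averaged 0.204 peaks. Gene-rich windows with few H3K4me3 peaks resembled gene-poor ones in H3K9me2. The 49 windows with over 10 genes and 0 to 2 H3K4me3 peaks averaged 2.04 H3K9me2 peaks (1.66 to 2.48), and olfactory and vomeronasal receptors made 57.5% of their genes. The 148 windows with over 20 H3K4me3 peaks averaged 0.534 (0.423 to 0.665), and 1.16% of their genes were such receptors.

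**Figure D4:**
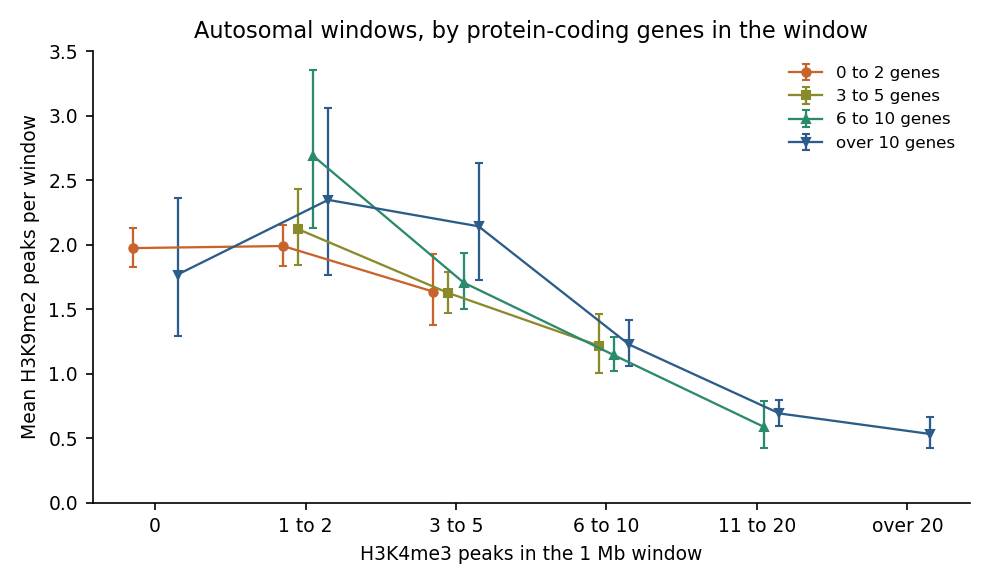
Mean H3K9me2 peaks per autosomal 1 Mb window (vertical axis) by the number of H3K4me3 peaks in it (horizontal axis), in 4 classes of protein-coding gene number, with exact 95% Poisson intervals of the mean and classes of at least 20 windows shown. In every gene class the mean is lowest at the highest H3K4me3 number shown, down to 0.534 in windows with over 20 H3K4me3 peaks.

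The windows with most H3K9me2 peaks were of different kinds. On chromosome 5 the window at 15 to 16 Mb held 20 H3K9me2 peaks and 1 H3K4me3 peak over the Speer family. The inputs had 9 and 8 peaks there, and 12 of the 20 overlapped no input. At 20 to 21 Mb on chromosome 8, among defensin and predicted genes, 19 H3K9me2 and 5 H3K4me3 peaks met 7 in each Ctrl input. The window at 55 to 56 Mb of chromosome 8 held 12 H3K9me2 peaks over predicted genes, and the inputs 7 and 5. By contrast, the window at 53 to 54 Mb on chromosome 2 held 11 H3K9me2 peaks, 1 H3K4me3 peak and no Ctrl input peak, beside 6 peaks of the CKO input. At 62 to 63 Mb on chromosome 3, around the receptor gene Gpr149, there were 10 H3K9me2 and 2 H3K4me3 peaks, with 2 and 0 Ctrl input peaks and 6 of the CKO input.

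Of the 148 autosomal windows with over 20 H3K4me3 peaks, 38.5% held any H3K9me2 peak, so windows with 0 were common among them. The 5 windows with most H3K4me3 peaks held 0 H3K9me2 peaks each. They were chromosome 10 at 80 to 81 Mb (56 H3K4me3 peaks, 54 genes, among them Gpx4 and Stk11), chromosome 11 at 69 to 70 Mb (53, with Aurkb, Vamp2 and Per1) and chromosome 7 at 19 to 20 Mb (51, with Dmpk and Six5). On chromosome 8 they were 123 to 124 Mb (51, with Spg7 and Rpl13) and 70 to 71 Mb (50, with Mef2b). In CKO muscle these windows held 0 to 3 H3K9me2 peaks. By the smaller of both counts, chromosome 14 at 3 to 4 Mb and chromosome 13 at 22 to 23 Mb held most of both marks. The former had 8 H3K4me3 and 7 H3K9me2 peaks over predicted genes and 6 and 5 input peaks. The latter, with histone genes beside vomeronasal receptors, held 7 of each and 1 and 0 input peaks. The other windows of this kind were chromosome 11 at 3 to 4 Mb (24 H3K4me3 and 6 H3K9me2 peaks, 0 of the 6 free of input), chromosome 10 at 78 to 79 Mb (16 and 6, 4 free) and chromosome 13 at 119 to 120 Mb (14 and 6, 1 free).

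Windows with H3K9me2 and no H3K4me3 also formed runs. Of 248 runs, 168 were 1 window long, 54 were 2, 18 were 3, 5 were 4 and 3 were 6. The 3 runs of 6 windows hold 2, 1 and 4 protein-coding genes. On chromosome 1 at 112 to 118 Mb, 16 H3K9me2 peaks (11 free of input) lay around Cntnap5a. On chromosome 8 at 96 to 102 Mb, 16 (13 free of input) lay around Cdh8. On chromosome 15 at 19 to 25 Mb, 15 (14 free of input) lay around Cdh12 and Cdh18. CKO muscle had 35, 26 and 36 H3K9me2 peaks in the same runs. Autosomal windows with H3K9me2 alone held a median of 0 genes and windows with H3K4me3 alone a median of 10.

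The sex chromosomes stood apart from the autosomes in number. X had 3.0001 H3K4me3 and 0.555 H3K9me2 peaks per Mb, below the autosomal ranges of 4.85 to 11.2 and 1.04 to 1.90. On X the median distance to H3K4me3 was 329 kb, above the autosomal range of 135 to 266 kb, and 4.30% of H3K9me2 peaks overlapped H3K4me3 against 8.04% to 20.4%. The mice were male, with 1 X in each cell, and the part of X number in these values was not tested.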

How the data were processed

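The 6 CUT&RUN libraries were deposited as MACS2 peak lists on mm10 from Bowtie2 alignments, per the submitters' processing notes. Neither tool versions nor the control of the peak calls were given in the sources used. Each deposited list gives, per peak, the authors' fold enrichment of the summit over local background. The deposited −log10 p and −log10 q values are also the authors', and the deposited score is 10 times −log10 q, rounded down, in 16559 of 16573 H3K4me3 peaks and all 3703 H3K9me2 peaks. The lists reach down to a q of about 0.05. Depth per library is not given in the lists. The number of fragments at a summit was recovered as the whole number whose Poisson p and fold match the deposited values within 0.1%, which succeeded for 99.9% of peaks of both marks.

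An overlap needed 1 bp, and peaks outside chromosomes 1 to 19, X and Y were dropped. Genes were the 21774 protein-coding genes of RefSeq on GRCm38.p6, after 113 on unplaced scaffolds or patches were left out. Promoter windows of 300 bases were found for 17492 of them. Sequence was counted from the first to the last position seen on each chromosome, 2660 Mb in all, and windows of 1 Mb were cut from position 1. Shares have exact (Clopper-Pearson) 95% binomial intervals and densities exact Poisson intervals. The tools were scipy 1.17.1 for intervals, pandas 2.3.3 and numpy 2.4.6 for tables, and matplotlib 3.10.9 for plots, under Python 3.11.15. On simulated peaks, 600 of 600 overlaps and 600 of 600 distances were recovered, and on simulated summits 1732 of 1732 fragment counts.

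The members and gene lists were chosen with earlier results of these data known. Named were the 10 genes with H3K9me2 alone, and the 10 and 5 with both marks without and with a Ctrl input peak, of highest H3K9me2 fold. The 3 longest genes with H3K4me3 alone and its 5 highest were added. So were the 5 highest overlapping pairs without and with a Ctrl input peak, the 5 H3K9me2 peaks farthest from H3K4me3, 5 windows of each kind, the 3 longest runs, Phf2 and examples from the lists. Some items that the rule names are not reported here. Alternatives covered thresholds, list lengths, input peaks, gene windows, gene length and window size.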

Additional observations from a re-analysis of the deposited data

How the results depend on the processing

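Of 100 alternative values for 8 results, 67 kept their size and direction, 32 moved and 1 changed sign, with an interval that includes 0. With q of 1e-05 or less in both lists, 58 genes had H3K9me2 alone and 58 both marks. The difference in the share of genes with H3K9me2, with H3K4me3 minus without, was -0.175 points, against 1.91 with the full lists. Its 95% interval, -0.387 to 0.0211, includes 0. At this q the median distance was 235.7 kb, 73 windows held H3K9me2 alone and rho was -0.12. That limit kept 392 of 3703 H3K9me2 peaks, and the cause of the change of sign was not tested. With folds at or above each list's median, 7866 genes had H3K4me3 alone and 272 both marks, the difference was 1.18 points, the overlap 9.49% and the distance 346.2 kb. Leaving out H3K9me2 peaks with a Ctrl input peak gave 1.25 points and 9.90%, and leaving out those of both marks gave 1.29 points, 9.72% and 241.3 kb. Leaving out H3K9me2 peaks with a peak of any of the 3 inputs, an alternative chosen after seeing the data, gave 414 genes with both marks, 0.0822 points, 5.46% and 225.005 kb. The H3K4me3 list cut to the length of the H3K9me2 list gave 3528 genes with H3K4me3 alone, 892 with H3K9me2 alone and 237 with both, an overlap of 4.70%, a distance of 529.1 kb and 857 windows. Genes under 100 kb included 175 with H3K9me2 alone and 456 with both marks. Windows of 0.5 Mb and 5 Mb gave 953 and 11 with H3K9me2 alone, and autosomes gave a rho of -0.39. Using 1 Ctrl input at a time to remove H3K9me2 peaks gave an overlap of 10.5% to 11.3%, 12315 to 12365 genes with H3K4me3 alone, 318 to 340 with H3K9me2 alone, 658 to 708 with both, 206.2 to 206.3 kb, 361 to 364 windows, rho from -0.28 to -0.276 and 1.42 to 1.55 points. No paired analysis was possible because each mark had 1 library. H3K9me2 summits of 6 fragments leave weaker sites undetected, so a gene or window without a peak is not shown to lack the mark.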
